A study of Mus musculus with 2 samples.

Results

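The genes Mir143, Mir145a, Mir199a-1, Mir199a-2, Mir199b and Mir214 are 6 of the 1973 microRNA genes that have a row in the tables for whole mouse kidney. Of the 1973 genes, 696 had a count in at least 1 pup and 526 in both. The 6 genes were chosen by name, as microRNAs known from smooth muscle and mesenchyme. MicroRNA sequencing was done on B6NCrl pups at postnatal day 0. Each of the 2 samples, called pup 1 and pup 2 here, holds both kidneys of 1 pup. The labels place both pups under the same pregnancy and give no treatment, and sex was not collected. They form 1 group of 2 biological replicates, so no comparison between conditions exists and levels, ratios between genes and the difference between the pups are described.

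MicroRNAs are cut from a hairpin precursor, and either arm of the hairpin can become the mature strand that guides repression of messenger RNAs through its seed, bases 2 to 8. Mir143 and Mir145a lie side by side and are made together in smooth muscle cells and related mural cells, where their products act on regulators of the contractile state. Mir199a-2 and Mir214 are made from the noncoding RNA Dnm3os, a transcript of embryonic mesenchyme that is read antisense to Dnm3. Mir199a-1 and Mir199b lie antisense to the related dynamin genes Dnm2 and Dnm1. In the kidney, such cells are found in vessel walls, the mesangium and the interstitium, and miR-214 and miR-199a are known from studies of renal fibrosis. In whole tissue, fewer cells of a type and less RNA per cell cannot be told apart.

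The mature arms are shown first because they set which reads can be given to 1 gene. RefSeq entries (build GRCm38.p6) were found for 4 of the 6 genes, Mir199a-1, Mir199a-2, Mir199b and Mir214, and not for Mir143 and Mir145a. Sequences run 5′ to 3′ with the seed in capitals.
miR-199a-5p: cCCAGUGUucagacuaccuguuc
miR-199a-3p and miR-199b-3p: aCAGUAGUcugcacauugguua
miR-214-5p: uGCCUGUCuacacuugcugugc
miR-214-3p: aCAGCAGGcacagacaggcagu
The 3p arms of all 3 miR-199 hairpins were identical over 22 bases, and the 5p arms of Mir199a-1 and Mir199a-2 were identical over 23 bases. The seed CAGUAGU was found in miR-199a-3p and miR-199b-3p and in no other of the 1679 mature names in the table. The seed CCAGUGU belonged to miR-199a-5p and GCCUGUC to miR-214-5p, with no other carrier in the table. The seed CAGCAGG of miR-214-3p was shared with miR-761, whose gene Mir761 had 0 counts in both pups.

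On the Mir199b hairpin, the window that matches miR-199a-5p differs from it by 1 substitution, C10U, counted from 1 at the 5′ end of miR-199a-5p. This pair is shown because it is the place within the arms where a read can tell Mir199b from the other miR-199 genes. The differing base is in capitals.
miR-199a-5p: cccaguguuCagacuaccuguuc
Mir199b hairpin, chr2:32318485-32318507, plus strand: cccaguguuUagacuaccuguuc
That substitution lies outside bases 2 to 8, so the seed CCAGUGU is present in both. RefSeq lists the 3p arm of Mir199b, and its 5p window was read from the hairpin by this match.

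Identity reached past the ends of the arms. Around the 5p arm, Mir199a-1 and Mir199a-2 shared a stretch of 27 bases, with 0 bases before the arm and 4 after it. Around the 3p arm they shared 26 bases, with 3 before and 1 after. Mir199b shared 27 bases there with Mir199a-2, with 4 before and 1 after, and 28 bases with Mir199a-1, with 3 before and 3 after. On the Mir214 hairpin the closest windows had 10 substitutions to miR-199a-5p and 12 to miR-199a-3p.

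**Figure D1:**
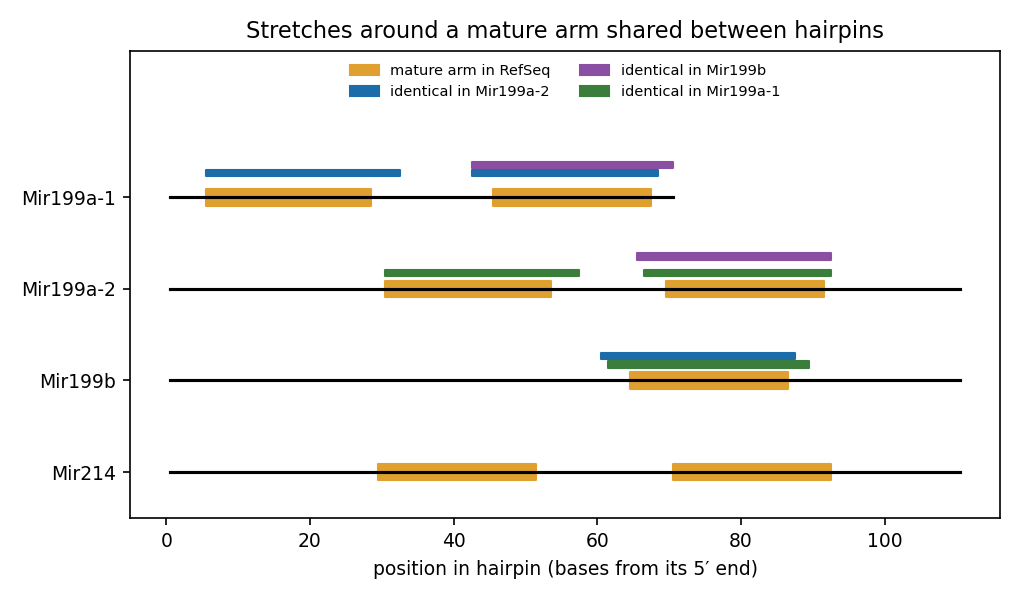
Hairpins of 4 genes drawn from their 5′ end in bases (x axis), with RefSeq mature arms in orange and, above them, stretches around an arm that are identical in another hairpin. Every drawn miR-199 arm lies inside a stretch found in at least 1 other hairpin. Stretches were sought and drawn between the miR-199 hairpins only, so the Mir214 hairpin shows its arms alone.

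The tables name their leading rows as the gene counts of the STAR aligner do, where a read that maps to several places is given to no gene and is listed as multimapping. That row held 3038663 reads in pup 1 and 2075718 in pup 2, which is 30.3% and 31.0% of all reads. The 3 miR-199 genes together had 1685 counts in pup 1 and 994 in pup 2. How many multimapping reads came from miR-199 was not tested, so the counts of Mir199a-1, Mir199a-2 and Mir199b are those of reads placed at 1 gene and not levels of the mature microRNAs. A search of 869 table genes with a RefSeq hairpin found a shared stretch of 22 bases with another hairpin for 90, or 10.4%, the 3 miR-199 genes among them and Mir214 not. A level of 10 CPM (counts scaled by the library total) was reached by 42.2% of these 90 genes and by 23.5% of the other 779. These groups were not matched in any other way, and whether a shared stretch costs a gene counts was not tested. By arms, that level was reached by 17.6% of the 34 genes whose every RefSeq arm has an identical copy elsewhere, by 57.1% of the 49 with a copy of some arms and by 23.9% of the 775 with none. Mir199a-2 and Mir199b were among the 6 of those 34 genes that reached 10 CPM, and Mir199b is in that class because its 5p arm is not listed.

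The CPM of a gene is its count on its own strand per 1000000 counts over all named genes, 5832192 in pup 1 and 3846704 in pup 2. A small RNA read covers about 1 mature arm whatever the length of its hairpin, so counts were not divided by length. The yield of reads per molecule was not measured for any gene, so an order of genes here is an order of reads. A mean is given ± SD over the 2 pups.

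The miR-143/145 pair came first. Mir143 (ENSMUSG00000065445.2) had 34820 CPM in pup 1 and 39014 in pup 2, from 203076 and 150077 counts. It stood at rank 8 of all genes in either pup. On mm10 its hairpin lies on the minus strand of chromosome 18 from 61649196 to 61649258, in no other annotated gene. The noncoding gene Carmn lies just upstream on the same strand, from 61649625 to 61665537. The gene next above in the ranking was Mirlet7i at 38857 ± 3156 CPM, whose pup values overlapped those of Mir143 (36917 ± 2966). The gene next below, Mir30e at 31966 ± 3330, did not overlap.

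Mir145a (ENSMUSG00000065592.1) had 1039 CPM in pup 1 and 1148 in pup 2, from 6058 and 4417 counts. Its hairpin lies on the same strand from 61647825 to 61647894, with 1301 bases between it and Mir143. It stood at rank 73 in both pups. Both its neighbours in the ranking of means overlapped it, namely Mir28a, a microRNA of the Lpp gene, at 1163 ± 154 CPM, and Mir187 at 1084 ± 117. Mir143 exceeded Mir145a 33.5-fold in pup 1 and 34.0-fold in pup 2, so this ratio varied little between the pups while both levels were higher in pup 2. Mir145b, a further miR-145 gene elsewhere on the chromosome, had 0 counts in both pups. Without RefSeq entries for Mir143 and Mir145a, copies of their arms elsewhere were not checked, so their ratio is one of placed reads. Whether reads of Mir145b can be placed was not checked either.

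The miR-199/214 genes were lower and ran from 4141 CPM in Mir214 to 3.23 in Mir199a-1. Mir214 (ENSMUSG00000065516.1) had 4152 CPM in pup 1 and 4131 in pup 2, from 24216 and 15890 counts, at ranks 33 and 34. Its place is chromosome 1, plus strand, 162223368 to 162223477, inside an exon of some Dnm3os transcript and opposite to an intron of Dnm3. The pups were close, with a mean of 4141 ± 15.1 CPM. Mir15a, next above at 4283 ± 297, overlapped it, and Mirlet7f-2, next below at 4015 ± 60.6, did not. Mir143 exceeded Mir214 8.39-fold in pup 1 and 9.44-fold in pup 2.

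Mir199a-2 (ENSMUSG00000070126.1), also inside an exon of some Dnm3os transcript, had 58.6 CPM in pup 1 and 53.3 in pup 2, from 342 and 205 counts. Its hairpin spans 162217814 to 162217923, with 5444 bases between it and Mir214. Mir214 had 70.8 times its counts in pup 1 and 77.5 times in pup 2. Reads of the miR-199 arms can match several hairpins, while the arms of Mir214 have no identical copy in another RefSeq hairpin. Places outside those hairpins were not searched. This ratio therefore compares placed reads only.

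Mir199b (ENSMUSG00000092807.1) had 226 CPM in pup 1 and 203 in pup 2, from 1319 and 780 counts. Its place is chromosome 2, plus strand, 32318460 to 32318569, opposite to an intron of Dnm1. It had the most placed reads of the miR-199 genes, 3.86-fold above Mir199a-2 in pup 1 and 3.80-fold in pup 2. Mir214 exceeded it 18.4-fold and 20.4-fold. All RefSeq arms of Mir199a-1 and Mir199a-2 have identical copies elsewhere, while the 5p window of Mir199b differs by 1 base. These ratios and this order therefore compare placed reads only. The pup values of its rank neighbours Mir32 (215 ± 2.30 CPM) and Mir501 (213 ± 8.99) overlapped its own.

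Mir199a-1 (ENSMUSG00000065547.1) was the lowest, with 24 counts in pup 1 and 9 in pup 2, which is 4.12 and 2.34 CPM. Its place is chromosome 9, minus strand, 21496495 to 21496564, opposite to an intron of Dnm2. Its counts were above the limit of 3 counts that a count of 0 allows, 0.514 CPM in pup 1 and 0.780 in pup 2. All RefSeq arms of this gene have identical copies elsewhere, so that comparison does not bound its level. Its neighbours Mir1947 (3.27 ± 0.219 CPM) and Mir6240 (3.14 ± 1.13) and those of Mir199a-2, Mir92-2 (57.7 ± 3.28) and Mir1981 (55.8 ± 5.43), all overlapped.

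**Figure D2:**
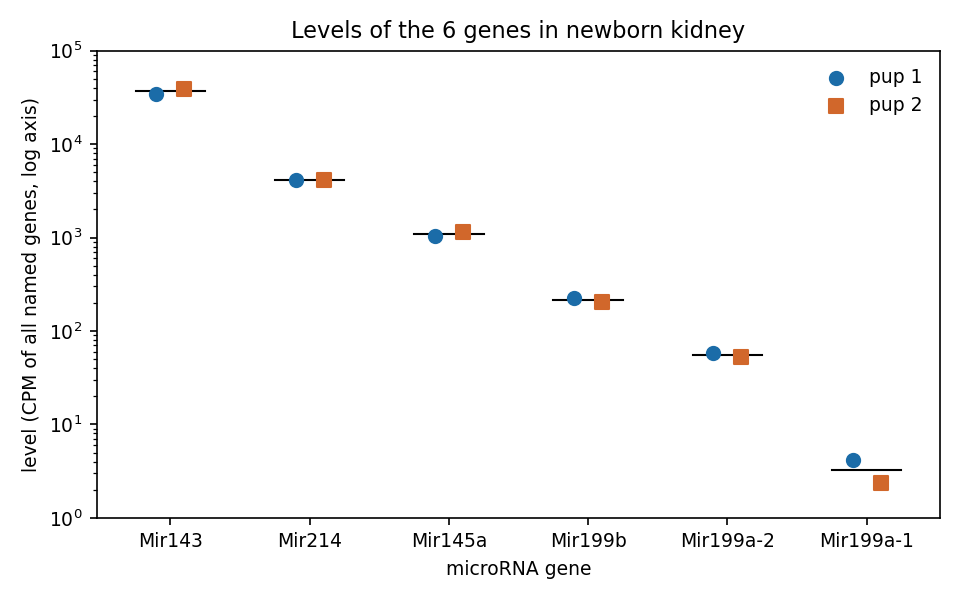
Level of each gene in CPM on a log axis (y axis) in pup 1 (circle) and pup 2 (square), with the mean of both as a line. The order from Mir143 at 36917 CPM to Mir199a-1 at 3.23 CPM was the same in both pups, and no gene's values overlapped those of the next.

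**Figure D3:**
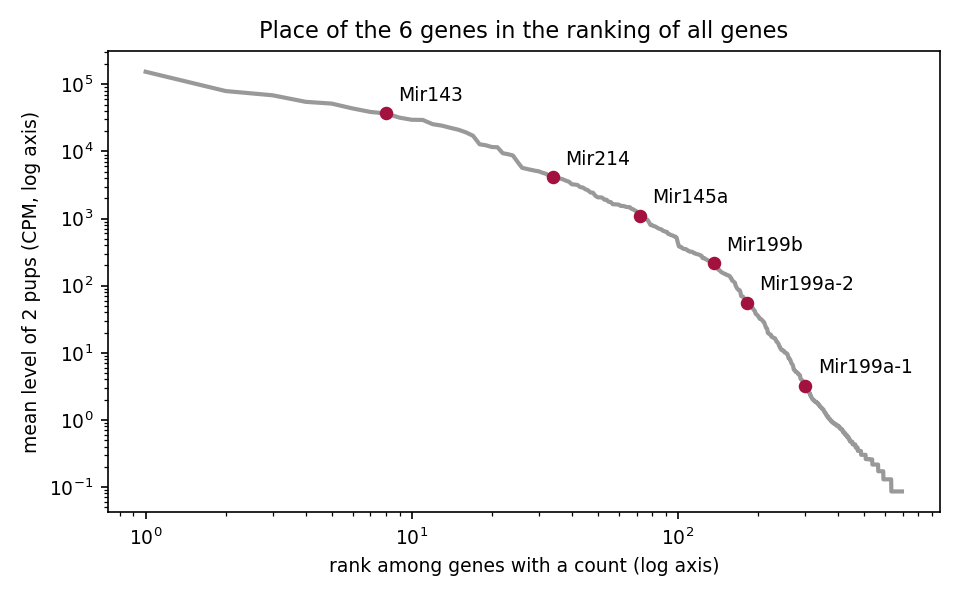
Mean level of 2 pups in CPM (y axis) against the rank of all genes with a count (x axis), both on log axes, with the 6 genes as red points. Mir143 is near the top at rank 8, while Mir199a-1 is at rank 302.

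The 6 genes took 4.03% of the counts of pup 1, with a Wilson interval at the 95% level from 4.01 to 4.05. They took 4.46% of those of pup 2, with an interval from 4.43 to 4.48. Such intervals cover counting error only. Mir143 alone made up 86.4% and 87.6% of that sum. Mir214 added 10.3% and 9.27%, Mir145a 2.58% in each pup, Mir199b 0.561% and 0.455%, Mir199a-2 0.146% and 0.120%, and Mir199a-1 0.0102% and 0.00525%. Without Mir143 the other 5 genes held 0.551% ± 0.0041 of all counts. Any statement on the sum is therefore one on Mir143. On the opposite strand, 1 read was counted at Mir214 in pup 2 and 0 reads at the other 5 genes in both pups.

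Unequal neighbours were common. Among genes that averaged 10 or more counts, 102 pairs of neighbours lie on 1 strand within 10 kb of each other, and the higher gene of a pair exceeded the lower 6.02-fold in the median, with quartiles of 2.31 and 28.4. By the ratio of means the pair Mir143 and Mir145a stood at rank 24, at 33.8-fold. The pair Mir214 and Mir199a-2 stood at rank 12, at 74.0-fold. As a description, 25 pairs reached 30-fold or more. In 10 of these 25 the lower gene has an arm with an identical copy elsewhere, as it has in 21 of all 102 pairs, and Mir199a-2 is one of them. In 12 of the 25 the lower gene has no such arm, and in 3, Mir145a among them, it had no RefSeq arm to compare. Over the 70 pairs whose lower gene has no copied arm the median ratio was 4.10.

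**Figure D4:**
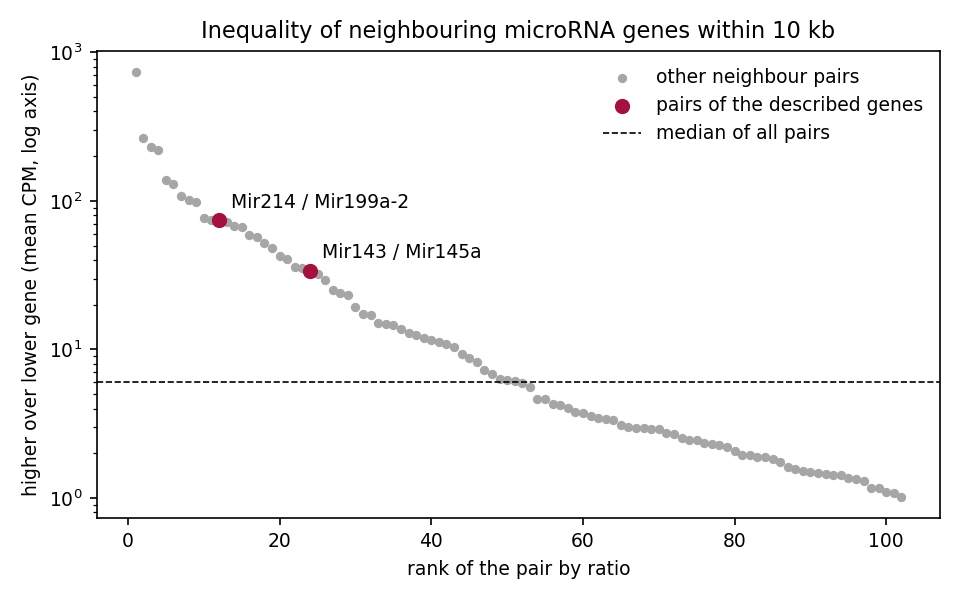
Ratio of the higher to the lower gene in mean CPM (y axis, log) for 102 neighbour pairs ordered by that ratio (x axis), with both pairs of the described genes in red and the median of 6.02 as a dashed line. Mir214 over Mir199a-2 at 74.0 and Mir143 over Mir145a at 33.8 lie above the upper quartile of 28.4.

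Between the pups, Mir143 and Mir145a were higher in pup 2 by small ratios, and the other 4 genes did not pass the test. The split of each gene's reads between the libraries was set against that of the TMM-scaled library sizes by an exact binomial test, two-sided, for the 324 genes that averaged 10 or more counts. Adjustment over all 324 followed Benjamini and Hochberg. With 1 library a side, such a test speaks of these libraries, not of a condition, and knows no error but that of counting. Of all tested genes, 14.8% were called higher and 15.4% lower in pup 2, which is 30.2% in either direction. Of the 6 genes, 2 were called higher and 0 lower.

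The log2 ratio of pup 2 over pup 1 was 0.17 for Mir143 (95% counting interval 0.16 to 0.18, adjusted p = 3.1e-247, exact binomial test). For Mir145a it was 0.15 (0.09 to 0.20, adjusted p = 1.9e-06, exact binomial test). Among all tested genes the median absolute log2 ratio was 0.15, close to the sizes of both. That median includes genes with few counts, whose ratios carry more counting error. Genes of like count were not set apart, so it does not show how common such shifts are at the depth of Mir143. With the spread between the pups in the model (edgeR exact test with a common dispersion, a biological coefficient of variation of 9.19%), neither was called, with adjusted p = 1 for both, and 0.309% of all genes were. The dispersion in that model comes from the very libraries it compares, 1 a side, so a shift of common size is not expected to pass and the result is no check of these genes.

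For Mir214 the log2 ratio was -0.0055 (-0.03 to 0.02, adjusted p = 0.872, exact binomial test). Mir199b stood at -0.16 (-0.29 to -0.03) and missed the threshold of 0.05 with adjusted p = 0.0545 in that exact test. Mir199b was called lower with TMM scaling factors computed over all genes (-0.18) and with a minimum mean count of 100 (-0.16). It was not called with library totals (-0.16), both strands (-0.15), DESeq2 size factors (-0.14), no filter on low counts (-0.16) or the edgeR exact test (-0.16). Its call therefore rests on these choices, and most settings gave none. Mir199a-2 stood at -0.13 (-0.39 to 0.12), and Mir199a-1 at -0.76 (-2.10 to 0.34), a wide interval that rests on 24 and 9 counts. The median over the 6 genes was -0.07, beside -0.02 over all tested genes.

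The shifts of neighbouring genes were also compared. The log2 ratios of Mir143 and Mir145a differed by 0.02 and those of Mir214 and Mir199a-2 by 0.13, beside a median difference of 0.17 over the 102 neighbour pairs. A difference of 0.02 or less was found in 7 of these pairs, that of Mir143 and Mir145a included. The 102 pairs include genes with few counts, so counting error adds to their median difference. For Mir199a-2 the counting interval (-0.39 to 0.12) is wider than the difference of 0.13. Whether neighbours shift together was not tested.

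**Figure D5:**
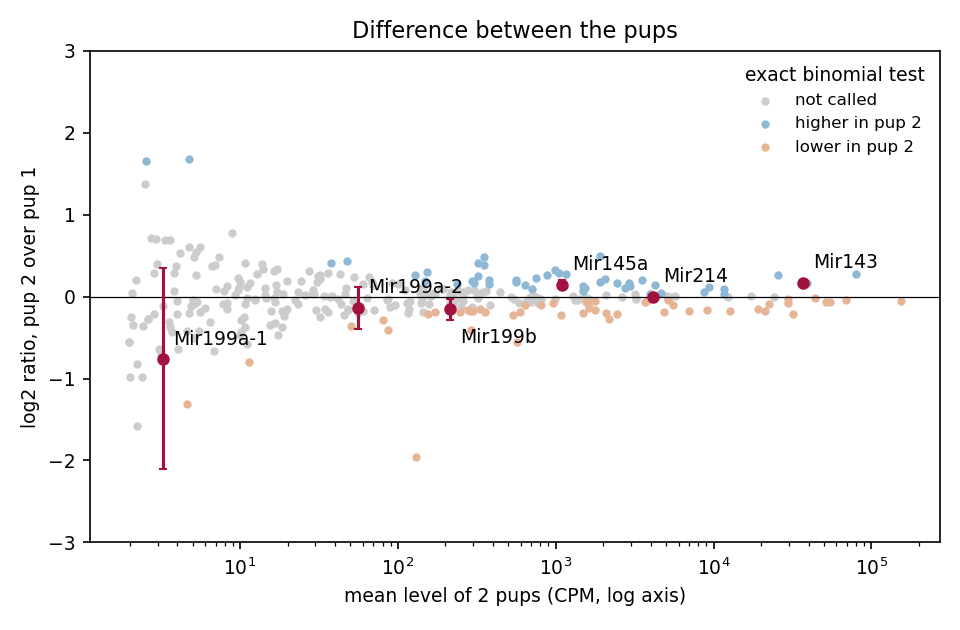
Log2 ratio of pup 2 over pup 1 (y axis) against the mean level in CPM (x axis, log) for 324 genes, coloured by the exact binomial test, with the 6 genes in red and bars for their 95% counting intervals. Mir143 and Mir145a lie just above 0 at 0.17 and 0.15, among many genes with shifts of that size, and Mir214 lies at -0.0055.

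Markers of other cell types were read beside these values, where 14.8% of all tested genes were called higher and 15.4% lower in pup 2. The endothelial Mir126a had 71968 CPM in pup 1 and 87209 in pup 2, a log2 ratio of 0.28 (0.27 to 0.29). It was thus higher in the same pup as Mir143 and Mir145a. Endothelium was represented by this gene alone, so no shift of that cell type can be read from it. Mir221 (-0.07) and Mir222 (0.0022), also known from endothelium but kept in the smooth muscle and fibroblast list, were not called. The 5 genes of the epithelial miR-200 family held 3.16% and 3.17% of counts, with 1 called higher (Mir200b, 0.05), 1 lower (Mir200c, -0.07) and 3 not called. The 3 erythroid genes held 0.0241% and 0.0099%, a fall carried by Mir451a (208 to 53.6 CPM, called lower), while Mir144 (32.2 to 42.9 CPM) was called higher and Mir486 had 4 and 9 counts. The 4 counted leukocyte genes held 0.0735% and 0.0672%, with Mir223 (-0.18) called lower and 3 not called. The 4 genes of the mature proximal tubule held 0.0848% and 0.0896%, where Mir192 (0.20) was called higher and the other 3 were not called, with a list median of -0.20. Pup 2 also had the smaller library. What part cell makeup or depth has in the shift of Mir143 and Mir145a was not tested. Of 8 striated muscle genes with a row, 4 (Mir133b, Mir133a-2, Mir133a-1 and Mir1a-1) were at 0 in each pup, and the list held 52 counts in pup 1 and 34 in pup 2. The Mir1a and Mir133a genes are known to have copies with the same mature sequence, so their counts of 0 do not bound their level and give no measure of striated muscle in the tissue.

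Other microRNAs known from smooth muscle and fibroblasts were listed for comparison, 20 genes of which 19 have a row. They held 3.70% of counts in pup 1 and 3.65% in pup 2. The 5 highest were Mir21a, a microRNA known from injury and fibrosis, at 12810 ± 1139 CPM, Mir22 at 11665 ± 168, Mir100 at 3546 ± 345, Mir140, known from cartilage, at 3170 ± 38.9, and Mir195a at 2071 ± 23.1 CPM. All 5 lay between Mir143 and Mir145a, and Mir21a and Mir22 lay above Mir214. Of the 15 listed genes that were tested, 4 were called higher in pup 2 and 1 lower, beside 14.8% and 15.4% of all tested genes. Mir21a was the lower one at -0.18 (-0.20 to -0.16), while Mir100 was higher at 0.20 (0.17 to 0.23). Mir28a (0.27), Mir204 (0.16) and Mir22 (0.03) were the others called higher. The median log2 ratio of the list was 0.03, beside -0.02 over all tested genes.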

How the data were processed

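Small RNA was sequenced from the kidneys of 2 pups. The authors deposited read counts per gene, not normalised, made from alignments to mm10 over GENCODE M4, per the deposited notes. The aligner version, the trimming and the filters were not given in the sources at hand. Of 3 count columns, that for the strand of the gene was used, identified from the column sums. Of 10014956 reads in pup 1 and 6700198 in pup 2, 58.2% and 57.4% were counted for genes; the rows that name no gene (multimapping 30.3% and 31.0%, unmapped 8.52% and 8.69%, no feature 2.91% and 2.92%) stayed out of library sizes and tests. Identifiers were matched without version to GENCODE M21 (same assembly; 1894 of 1973 matched), which gave symbols and places. Mir143 and Mir145a carry another version there.

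Scaling used TMM of edgeR 4.0.16 over genes averaging 10 or more counts. The exact binomial test and intervals used scipy 1.17.1, with a prior count of 0.5 in log2 ratios. The test was tried on simulated counts that held planted changes and counting error but no variation between animals. That trial does not show how the test behaves where animals vary. Named genes are the 6 genes, their rank neighbours by mean CPM, the 5 highest of the list of other smooth muscle and fibroblast microRNAs, and neighbour pairs holding one of the 6; any other name was picked with its values in view. The members and lists were chosen with earlier results of these data known. RefSeq tables gave hairpins and arms. Alternatives were library totals, DESeq2 1.42.0 size factors, other filters, denominators and strands, leaving out each pup, and, chosen after seeing the data, edgeR's exact test and TMM over all genes.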

Additional observations from a re-analysis of the deposited data

How the results depend on the processing

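The share of the 6 genes, 4.24%, was 2.45% of all reads in the tables and 5.02% with Mir10a left out of the total. Without 1 pup it ran from 4.03% to 4.46%. Mir143 over Mir145a ran from 33.5 to 34.0, Mir214 over Mir199b from 18.4 to 20.4 and Mir143 over Mir214 from 8.39 to 9.44. Of 324 genes, 98 passed the exact binomial test, 48 higher and 50 lower in pup 2. With TMM over all genes 109 passed, 41 higher and 68 lower, and with DESeq2 size factors 92, 52 higher and 40 lower. The edgeR exact test called 1 gene (Mir451a, named after its values were seen), and 14 at an unadjusted p below 0.05, none of the 6; its dispersion came from the difference under test, so it is no check of robustness. Under it Mir143 (0.17) and Mir145a (0.15) kept their direction without passing. Mir214 turned from -0.0055 to 0.013 with DESeq2 size factors, not called either way. No paired analysis was possible because there is 1 group. Mir199a-1 had the fewest counts of the 6 genes, 24 in pup 1 and 9 in pup 2, and all its RefSeq arms have identical copies elsewhere. What part depth has in these low counts was not tested.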
